A study of Mus musculus with 6 samples.

Results

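The lymphocyte fate transcription factors described here are 10 genes, 5 that are kept high in immature, naive and stem-like lymphocytes (Tcf7, Lef1, Id3, Bach2 and Foxo1) and 5 that are linked to effector, innate-like and tissue-resident lymphocytes (Id2, Gata3, Nfil3, Ikzf2 and Tox). They were chosen by name with earlier results of these data known, and the brightest probe set stood for each gene. Of the 10, 9 were among the 20300 genes tested, while Gata3 had no probe set among those analysed here, which leaves 4 effector factors. The 2 groupings are working names, since several of these factors act at more than 1 stage.

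Dendritic epidermal T cells (DETC) were profiled with 6 arrays of the type Clariom S Mouse, on which short probes report the transcripts of mouse genes. The cells came from back and belly epidermis of male and female mice aged 2 weeks, of the B6.129-Ahrtm1Bra/J line, in which Ahr, encoding the ligand-activated aryl hydrocarbon receptor, is knocked out. There were 3 arrays of mice with 1 knockout allele (Ahr-het) and 3 of littermates with the allele on both chromosomes (Ahr-ko), so that the controls also carried it once, and every cell of the Ahr-ko mice lacked the intact gene. Each array held 10 ng of RNA of 2 to 3 pooled mice, from cells stained for the γδ TCR and the Vγ3 TCR and sorted to a purity of 90 to 98%, and DETC were 10 to 15% (Ahr-het) or 2 to 4% (Ahr-ko) of epidermal cells.

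DETC leave the fetal thymus in the first wave of γδ T cells, carry a single kind of TCR and then renew themselves in the epidermis. In T cells generally, TCF-1 and LEF-1 (Tcf7 and Lef1) open and maintain the T lineage program, BACH2 holds effector genes down, and FOXO1 keeps up the genes of survival and homing until PI3K signalling sends it out of the nucleus. ID2 and ID3 bind E proteins and keep them off DNA, while GATA-3, NFIL3, Helios (Ikzf2) and TOX shape effector, innate lymphoid and agonist-selected cells.

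Levels are deposited log2 values after RMA, which corrects background, equalizes the arrays and summarizes the probes. As probes differ in brightness, the level of a gene was not set against that of another, but only against a background limit, which was set on each array at the 95th percentile of 1391 genes for olfactory and vomeronasal receptors (7.46 to 7.56 in Ahr-het, 7.55 to 7.63 in Ahr-ko). Between 57.4 and 60.2% of the genes lay above it. The genotypes were compared with limma and Benjamini-Hochberg adjustment over all 20300 genes at a threshold of 0.05. Each p-value measures a difference against the variation among mouse pools of 1 genotype, and with 3 arrays a group precision is limited. In sorted bulk RNA, a change in the share of cells that use a gene and a change of RNA per cell cannot be told apart. The targeted gene itself, Ahr (gene ID 11622, chromosome 12), had levels of 10.77, 10.62 and 10.72 on the Ahr-het arrays and of 10.00, 10.40 and 10.39 on the Ahr-ko arrays. Every Ahr-ko array was thus below every Ahr-het array, but the difference of -0.44 (log2, standard error 0.13) did not pass the test (adjusted p = 0.177). Where its probes lie relative to the deleted part is not given in the sources used here, so this gene does not check the labels.

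Of the 9 factors, Bach2 and Ikzf2 rose in DETC of Ahr-ko mice, 1 from each grouping, and none passed the test in the other direction. Among all genes 1.58% passed upward and 1.57% downward. Before adjustment, 3 of the 9 had a p under 0.05 (Bach2 and Ikzf2 higher, Id3 lower), against 13.2% of all genes in either direction. The 3 Ahr-ko arrays were above the 3 Ahr-het arrays for 3 of the 9 (Tcf7, Bach2 and Ikzf2), against 9.76% of all genes, and below them for 1 (Id3), against 8.91%. As the factors were chosen with results of these data known, these counts beside the shares are a description and no test. Apart from Lef1, the factors were above the background limit on all 6 arrays.

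**Figure D1:**
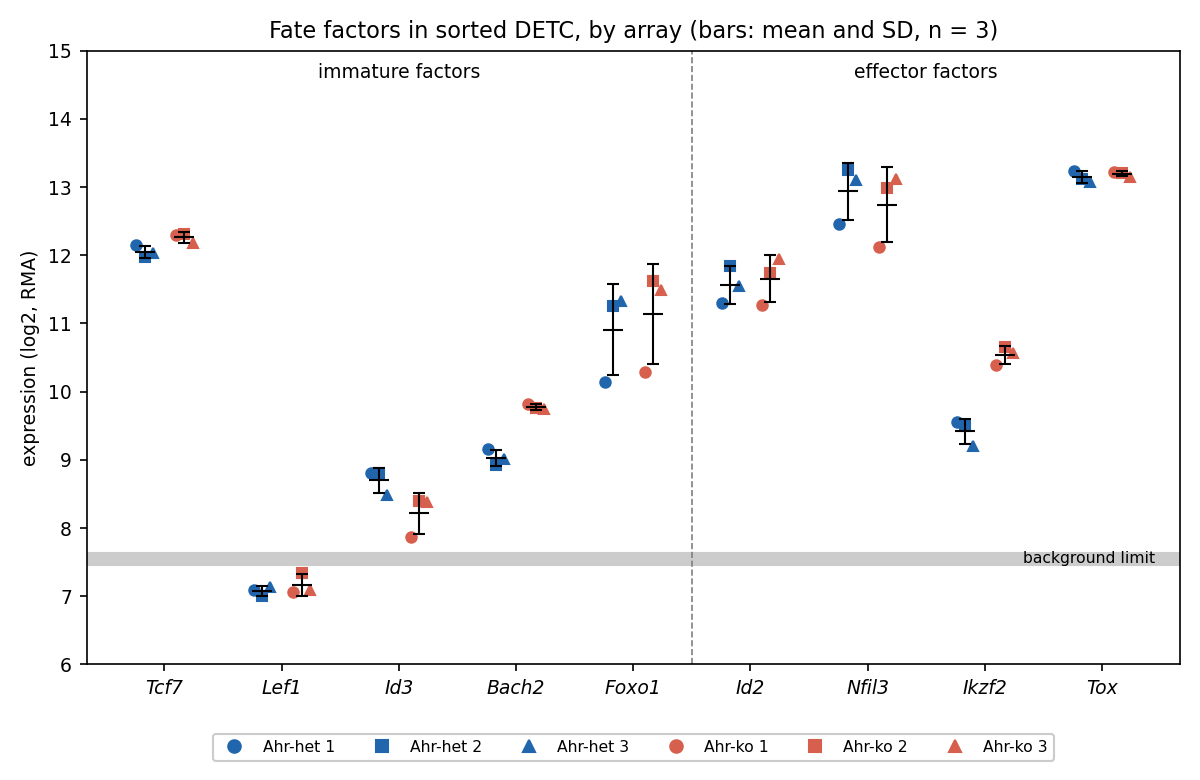
Expression (log2, RMA) of the 9 factors on each of the 6 arrays, with symbols for the replicate number, horizontal and vertical bars for mean and SD (n = 3) and a grey band for the range of the background limit. Ikzf2 and Bach2 separate by genotype, Lef1 lies below the band, and Foxo1, Nfil3 and Id2 are lowest on the arrays numbered 1 of both genotypes.

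Among the immature factors, Bach2 (gene ID 12014, chromosome 4) encodes a leucine zipper repressor that keeps naive and memory T cells from turning into effector cells. Its level was 9.16, 8.92 and 9.01 on the Ahr-het arrays and 9.82, 9.76 and 9.75 on the Ahr-ko arrays. All Ahr-ko arrays were above all Ahr-het arrays, with a gap of 0.59 between the groups, and the values within each genotype lay close together. The mean rose from 9.03 ± 0.12 to 9.77 ± 0.039 (SD, n = 3 arrays), a 1.67-fold difference (95% interval 1.42 to 1.98, limma adjusted p = 0.00642). The difference was 0.66, 0.83 and 0.74 (log2) between arrays of equal number 1, 2 and 3, and it passed the test in all 16 alternative settings.

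Id3 (gene ID 15903, chromosome 4) encodes an inhibitor of E proteins that strong TCR signals induce in developing γδ T cells. Its level was 8.80, 8.80 and 8.49 on the Ahr-het arrays and 7.87, 8.40 and 8.39 on the Ahr-ko arrays. The groups did not overlap, but only 0.093 lay between them, and without the lowest array, Ahr-ko 1, the difference was -0.31 (log2). The log2 fold change was -0.48 (standard error 0.17, 95% interval -0.87 to -0.09), which did not pass after adjustment (limma adjusted p = 0.254, before adjustment 0.0215). Between arrays of equal number it was -0.94, -0.40 and -0.10. On the Ahr-ko arrays Id3 was 0.63 above the limit on average, and it passed a stricter limit at the 99th percentile of the receptor genes on 0 of 3 of them.

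Bach2 and Id3 had differences of opposite sign and did not overlap between genotypes, so the 250 bases before their start sites are shown here, from RefSeq on GRCm38.p6, plus strand, at chr4:32417185-32417434 and chr4:136143572-136143821. Capitals mark GCGTG, the core of the element that AHR binds with its partner ARNT, searched on both strands.
Bach2: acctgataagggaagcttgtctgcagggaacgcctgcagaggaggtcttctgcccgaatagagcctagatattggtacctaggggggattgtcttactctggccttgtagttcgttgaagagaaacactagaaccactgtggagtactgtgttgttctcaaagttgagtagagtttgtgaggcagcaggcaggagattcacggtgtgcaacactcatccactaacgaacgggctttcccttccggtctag
Id3: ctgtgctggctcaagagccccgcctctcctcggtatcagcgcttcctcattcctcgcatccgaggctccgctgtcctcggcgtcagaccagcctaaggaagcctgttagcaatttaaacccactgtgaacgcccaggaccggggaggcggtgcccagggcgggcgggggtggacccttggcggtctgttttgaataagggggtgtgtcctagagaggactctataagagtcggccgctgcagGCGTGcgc
Id3 held 1 match, which began 8 bases before the start site (position -8, counting -1 as the last base before it), and Bach2 held none. RefSeq windows from 250 bases before to 50 after the start were at hand for 7 of the 9 factors, 11 windows in all. Foxo1 held the other match, at -247, and the longer form TNGCGTG, which overlaps GCGTG, was in 0 of the 11. Over the 32851 windows of all mouse genes at hand, 32.4% held GCGTG and 5.07% held TNGCGTG. These matches are descriptions of letters in the windows, and binding was not measured.

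Tcf7 (gene ID 21414, chromosome 11) encodes TCF-1, the HMG-box factor that starts the T lineage program downstream of Notch. Its level was 12.15, 11.97 and 12.03 on the Ahr-het arrays and 12.30, 12.31 and 12.17 on the Ahr-ko arrays. The Ahr-ko arrays were all higher, yet by a gap of only 0.026, and the difference of 0.21 (log2, standard error 0.10, 95% interval -0.03 to 0.45) did not pass the test (adjusted p = 0.452 by limma). In both genotypes the gene was far above the background limit, by 4.52 in Ahr-het and 4.67 in Ahr-ko.

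Lef1 (gene ID 16842, chromosome 3), its closest relative and partner in thymocytes and naive T cells, was below the limit on all 6 arrays, at 7.10, 7.003 and 7.14 in Ahr-het and 7.06, 7.34 and 7.09 in Ahr-ko. Neither genotype had a level above background, so no direction was read from Lef1, and its value of 0.08 (log2) stands in the plot of differences and in the median of the immature factors only so that no factor is left out. Tcf7 was thus far above the limit in these cells while Lef1 was not above it.

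Foxo1 (gene ID 56458, chromosome 3), the forkhead factor that keeps up the IL-7 receptor in naive T cells, varied more between arrays of 1 genotype than between genotypes. Its level was 10.14, 11.26 and 11.33 in Ahr-het and 10.29, 11.62 and 11.49 in Ahr-ko, so that the array numbered 1 was lowest in both. The log2 fold change was 0.22 with a wide interval (-0.72 to 1.17, limma adjusted p = 0.891). Between arrays of equal number it was 0.15, 0.36 and 0.16, and with the replicate number as a block its standard error was 0.10 in place of 0.41, still without passing (adjusted p = 0.267). The mean level of the keratinocyte markers was 8.83, 9.08 and 9.12 in Ahr-het and 8.68, 9.02 and 8.92 in Ahr-ko. It was also lowest on the arrays numbered 1, although the markers Krt1, Krt10 and Dsp were highest there in both genotypes. With that mean as a covariate Foxo1 passed, at 0.80 (log2, limma adjusted p = 0.00321). This was the only call among the 9 factors that any of the alternatives added. The mean was, however, also lower in Ahr-ko at each number and includes Dsp, which itself fell (-1.22, log2). The covariate thus shares part of its variation with the genotype, and its part in this call was not tested.

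Among the effector factors, Ikzf2 (gene ID 22779, chromosome 1) encodes Helios, an Ikaros family factor found in regulatory T cells and other cells that have met strong TCR signals in the thymus. Its level was 9.55, 9.49 and 9.21 on the Ahr-het arrays and 10.39, 10.65 and 10.57 on the Ahr-ko arrays. The groups were 0.84 apart, the widest gap of the 9 factors. The mean rose from 9.42 ± 0.19 to 10.53 ± 0.13 (SD, n = 3 arrays), a 2.17-fold difference (95% interval 1.76 to 2.67, limma adjusted p = 0.00236). Between arrays of equal number it was 0.84, 1.16 and 1.36 (log2), and it passed in all 16 alternative settings. By p Ikzf2 ranked 201 and Bach2 296 among the 20300 genes.

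The other 3 effector factors overlapped between the genotypes. Tox (gene ID 252838, chromosome 4), an HMG-box factor needed for innate lymphoid cells and for exhausted T cells to persist, was the steadiest, at 13.24, 13.12 and 13.08 in Ahr-het and 13.22, 13.21 and 13.15 in Ahr-ko. Its difference was 0.05 (log2, 95% interval -0.18 to 0.28, adjusted p = 0.907 by limma), and the upper end of this interval lay below the lower end of that of Ikzf2 (0.82). Id2 (gene ID 15902, on chromosome 12 as is Ahr), the E protein inhibitor that innate lymphoid and effector T cells depend on, was at 11.30, 11.85 and 11.54 in Ahr-het and at 11.28, 11.75 and 11.95 in Ahr-ko. The arrays numbered 1 were the lowest of each genotype, and the difference of 0.10 (95% interval -0.37 to 0.56) did not pass (limma adjusted p = 0.906). Nfil3 (gene ID 18030, chromosome 13), a leucine zipper factor that NK cell precursors require, was at 12.46, 13.24 and 13.10 in Ahr-het and at 12.12, 12.99 and 13.13 in Ahr-ko. Here too the arrays numbered 1 were lowest, and the difference of -0.19 (95% interval -0.87 to 0.48) did not pass (limma adjusted p = 0.865).

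**Figure D2:**
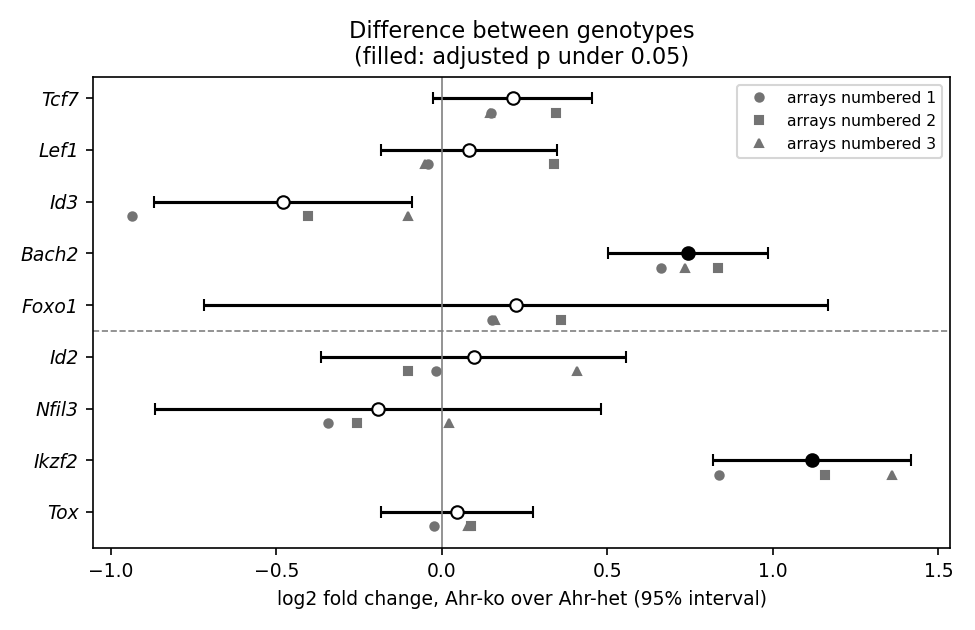
Difference between Ahr-ko and Ahr-het (log2 fold change) of the 9 factors, with the 95% interval of limma (filled where the adjusted p was under 0.05) and, in grey below it, the differences between arrays of equal replicate number. Bach2 (0.74) and Ikzf2 (1.12) are filled, Tox and Tcf7 have narrow intervals, and those of Foxo1 and Nfil3 are the widest.

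The immature and the effector factors were then set against each other. The median log2 fold change was 0.21 over the 5 immature factors (-0.48 to 0.74) and 0.07 over the 4 effector factors (-0.19 to 1.12), beside 0.0038 over all genes. The medians were thus 0.14 apart. Per array, the immature minus the effector median, both as deviations from the Ahr-het means, was 0.19, -0.26 and 0.03 in Ahr-het and 0.08, 0.14 and -0.16 in Ahr-ko, which overlapped. Both groupings held 1 factor that rose and others that did not pass the test, and with the keratinocyte covariate the difference of the medians turned to -0.07. As the factors were chosen with results of these data known, no p is given for it.

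The factors also differed in how much they varied between pools of 1 genotype. The SD within genotypes was 0.066 for Tox, 0.084 for Tcf7 and 0.087 for Bach2, but 0.70 for Foxo1, 0.49 for Nfil3 and 0.31 for Id2. The deviations of Foxo1 from the mean of its genotype were -0.77 on Ahr-het 1 and -0.84 on Ahr-ko 1. Those of Nfil3 were -0.48 and -0.63, and those of Id2 were -0.27 and -0.38. These 3 factors were therefore low together on both arrays numbered 1. The mean of the keratinocyte markers was low there as well, though not each marker. The part of either the number or the keratinocyte RNA in this was not tested.

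**Figure D3:**
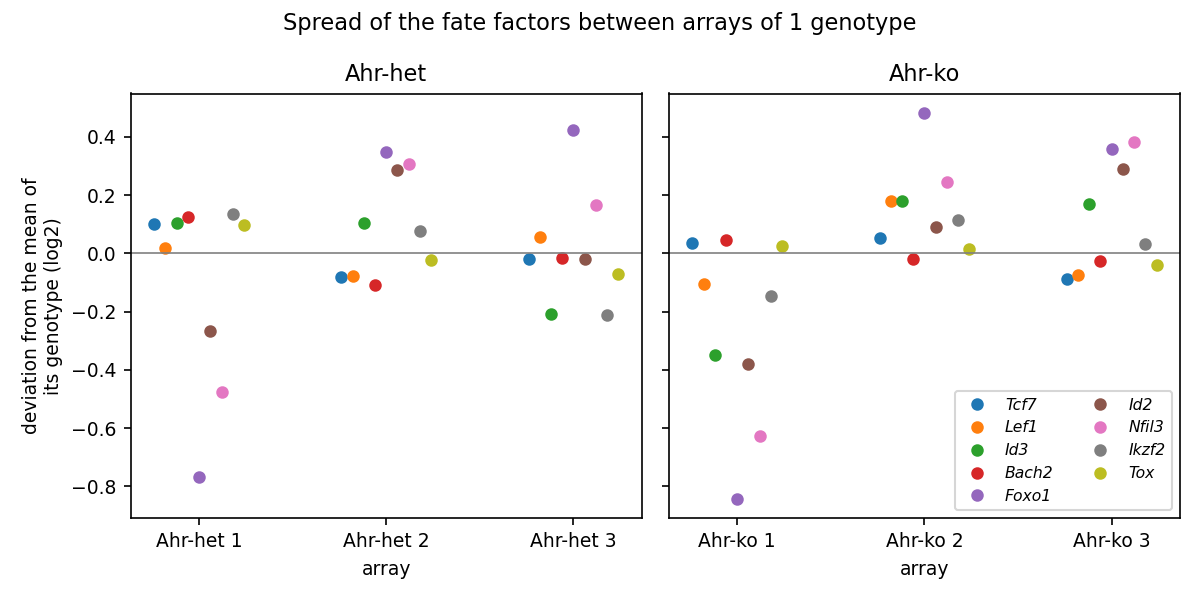
Deviation of each factor on each array from the mean of its genotype (log2), for Ahr-het on the left and Ahr-ko on the right. Foxo1, Nfil3 and Id2 lie between -0.27 and -0.84 on the arrays numbered 1 and above or near 0 on the others, while Tox, Tcf7 and Bach2 stay near 0.

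Relatives and binding partners of the factors mostly did not pass the test. Of 36 such genes 35 were tested, of which 1 rose and 3 fell, with a median log2 fold change of -0.04. Tcf4, an E protein of the kind that ID2 and ID3 bind, fell from 10.44 ± 0.13 to 9.57 ± 0.11 (SD, n = 3, adjusted p = 0.00444 by limma), while the E proteins Tcf3 and Tcf12 differed by 0.08 and 0.19 (log2) without passing. Tle4, a corepressor that TCF-1 recruits, fell by 0.85 on the log2 scale (adjusted p = 0.00402), whereas its relative Tle3 differed by 0.55 (adjusted p = 0.125). Of the Tle corepressors measured Tle4 was the only one past the threshold, and differences among them were not tested. Dbp, a leucine zipper factor of the circadian clock that binds sites shared with NFIL3, fell by 0.76 (adjusted p = 0.00925, but 0.0537 without Ahr-ko 3). Zfpm1, the GATA cofactor FOG-1, rose by 0.73 (adjusted p = 0.0252), a call that ended without Ahr-het 2, Ahr-het 3 or Ahr-ko 3 and with all probe sets in the fit (adjusted p up to 0.128). Among the Ikaros relatives of Ikzf2, Ikzf1, Ikzf4 and Ikzf5 were above the limit on all arrays and differed by -0.04, 0.0017 and -0.06, and Ikzf3 passed the limit on only 1 array of each genotype.

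Some other factors of both stages differed by more than any of the 9. Of 13 further factors of T lineage and naive cells 2 rose and none fell. Satb1, which organizes chromatin in thymocytes, was at 7.36, 7.78 and 7.71 in Ahr-het, with 2 of 3 arrays above the limit, and at 9.33, 10.50 and 10.06 in Ahr-ko (log2 fold change 2.35, adjusted p = 0.00227 by limma). Bcl6, the repressor known for follicular helper T cells and for opposing Blimp-1, rose by 1.84 (adjusted p = 0.00888, but 0.0585 without Ahr-ko 3). Both were higher on every Ahr-ko array than on any Ahr-het array. With the replicate block 2 of the list also fell, Klf3 (-0.52, below the limit on all arrays) and Bcl11b (-0.44, adjusted p = 0.0317), both named after their values were seen.

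Of 17 further factors of effector, innate-like and resident lymphocytes 15 were tested, and 3 rose and none fell. Eomes, a T-box factor of NK and memory CD8 T cells, was below the limit on all Ahr-het arrays (6.43, 6.89 and 6.995) and at 10.37, 10.13 and 10.19 in Ahr-ko, at least 6.54-fold higher (adjusted p = 1.52e-05 by limma). For such a bound, the brighter group's mean was divided by the mean limit on the arrays of the dimmer group. Tbx21, which encodes the related T-bet, was at 6.49, 8.57 and 8.69 in Ahr-het and at 10.38, 11.81 and 11.85 in Ahr-ko (log2 fold change 3.43, adjusted p = 0.0216). Ahr-het 1 was below its background limit, and without it the log2 fold change was 2.72. The arrays numbered 1 were again the lowest of each genotype, and the call ended without Ahr-het 2, Ahr-ko 2 or Ahr-ko 3 and with all probe sets in the fit (adjusted p up to 0.118). Bhlhe40, a factor of cytokine production and tissue residency, rose by 1.41 (adjusted p = 0.0199), a call that ended without Ahr-het 3, Ahr-ko 2 or Ahr-ko 3 and with all probe sets in the fit (adjusted p up to 0.111). With the replicate block 4 of the list rose and 2 fell, the added ones being Prdm1 (0.44, below the limit on all arrays), Irf4 (-1.02, adjusted p = 0.0353) and Maf (-0.54, adjusted p = 0.0337), named after their values were seen.

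Genes known as targets of the factors held calls in both directions. Of 12 FOXO target genes 2 rose and 1 fell. Il7r, the IL-7 receptor chain that T cells need for survival and that FOXO1 activates in naive T cells, was below the limit in Ahr-het (7.05, 6.42 and 6.38) and at 10.20, 9.84 and 9.45 in Ahr-ko, at least 4.95-fold higher (adjusted p = 1.91e-04 by limma). The groups did not overlap, and the call held in all 16 alternative settings. Bcl2l11, which encodes the death-promoting BIM, rose by 0.59 (adjusted p = 0.0219), a call lost in 5 of the 6 fits without 1 array (adjusted p up to 0.116). With the replicate block Trib1 (0.83, adjusted p = 0.0017) also rose and Gadd45a (-0.61, adjusted p = 0.0183) fell, both named after their values were seen.

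Of 12 TCF/LEF target genes 9 were tested, and 0 passed in either direction by limma, with 1 higher and 1 lower at an unadjusted p under 0.05. The 2 with the highest mean level that the naming rule picks, Znrf3 and Tnfrsf19, both known from Wnt signalling, differed by -0.05 and 0.36 (log2). Axin2, the feedback inhibitor often used as a readout of the pathway and named after its values were seen, differed by -0.90 (adjusted p = 0.294, and 0.0010 with the replicate block, under which it fell). Of 8 GATA3 target genes only Ccr8, a chemokine receptor of skin-homing T cells, passed, rising from 9.62 ± 0.39 to 11.70 ± 0.32 (SD, n = 3, adjusted p = 0.00146). Gata3 itself had no probe set among those analysed. Of the type 2 cytokine genes Il4 and Il5 were below the limit on all arrays, while Il13 was above it on all, at 10.69, 11.11 and 11.03 in Ahr-het and 11.15, 10.86 and 11.11 in Ahr-ko.

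Of 8 genes that BACH2 represses in T cells 1 rose and none fell, while Bach2 itself rose. The 8 differences were all above 0 (log2), with a median of 0.40, and 5 of them had a p under 0.05 before adjustment, against 6.69% of all genes in this direction. Of the 8, however, Prdm1, Il2ra and Gzma were below the limit on all arrays, and Il2ra was among those 5. S100a4, a calcium-binding protein of effector and memory T cells named after its values were seen, differed by 0.37 (limma adjusted p = 0.210). With the replicate block 3 passed, the added ones being Tigit (1.24, an inhibitory receptor) and Prdm1.

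**Figure D4:**
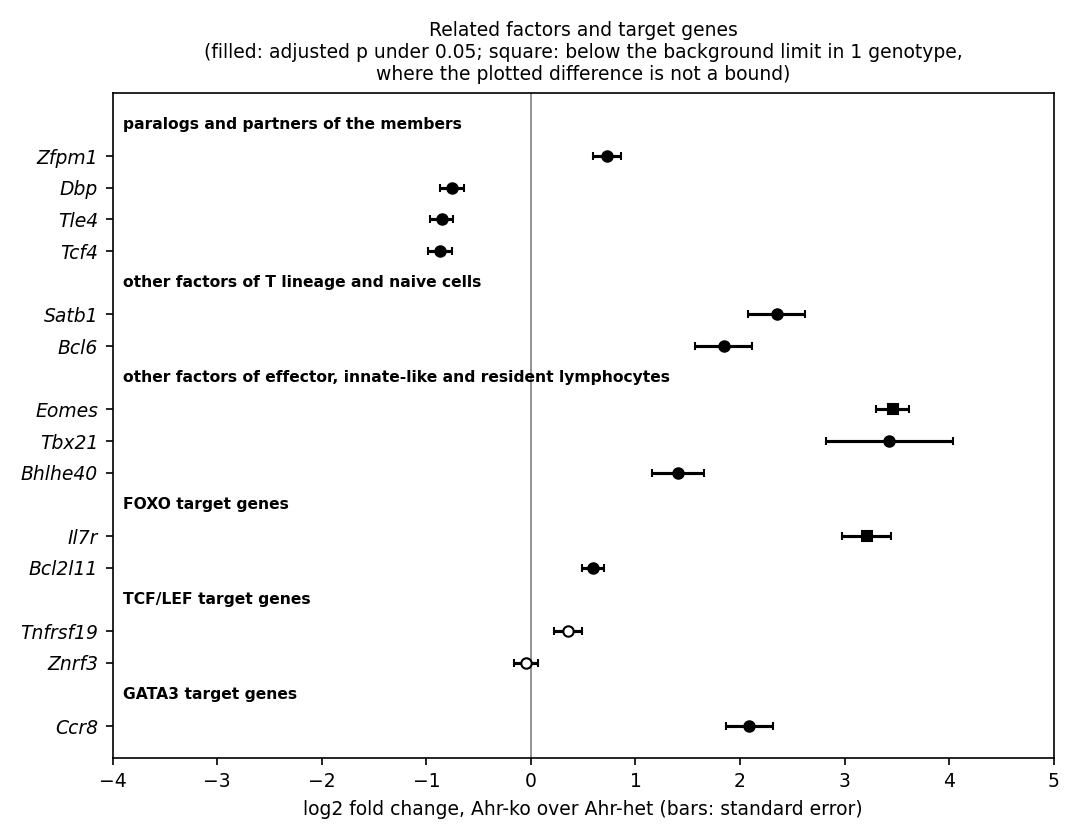
Difference between Ahr-ko and Ahr-het (log2 fold change, with standard errors) for the relatives, other factors and targets that the naming rule picks and the text reports (filled where the limma adjusted p was under 0.05). Squares mark Eomes and Il7r, which were below the background limit in 1 genotype and for which only the bounds in the text apply, and the 2 open points are Znrf3 and Tnfrsf19.

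Of the 12 DETC markers 11 were above the limit on all Ahr-het arrays and 12 on all Ahr-ko arrays. The 9 that did not pass the test differed by -0.35 (Cd7) to 0.52 (Ccr10) on the log2 scale. Among these, Cd3e, Cd3d, Cd3g, Cd247 and Itgae differed by -0.30 to -0.0018. Over the list the mean level was 11.60 to 11.76 in Ahr-het and 11.99 to 12.18 in Ahr-ko, and 3 rose (Tyrobp, Cd101 and Klre1). With the replicate block 5 rose, the added ones being Klrk1 and Ccr10. Mean levels of the αβ T cell, NK cell and ILC, IL-17 type and Langerhans cell marker lists were also higher in Ahr-ko, each with members that went the other way. The mean of the 6 αβ T cell markers was 8.59 to 8.66 in Ahr-het and 9.07 to 9.13 in Ahr-ko, where Cd8a, Cd8b1 and Cd6 rose, Themis fell and Cd4 was at 7.85 in Ahr-het and 7.50 in Ahr-ko. That of the 5 NK cell and ILC markers tested was 7.90 to 8.09 and 8.85 to 9.30, where Eomes, Ncr1 and Klri2 rose. Ncr1 was below the limit on all Ahr-het arrays and above it on only 2 of the 3 Ahr-ko arrays (8.99, 7.59 and 7.83). Klrb1c of the same list was at 11.34, 10.39 and 10.52 in Ahr-het and lower, at 10.51, 9.41 and 9.84, in Ahr-ko (log2 fold change -0.83, limma adjusted p = 0.308), and it fell with the replicate block (adjusted p = 0.0017). The mean of 11 genes typical for γδ T cells of the IL-17 type was 7.62 to 7.87 and 8.18 to 8.22, where Ccr2 and Cd163l1 rose. Ccr2 was below the limit on all Ahr-het arrays and above it on all Ahr-ko arrays. Il23r, Il1r1 and Ccr6 were below the limit on all arrays. Il17a, Il17f and Maf differed by -0.09, -0.33 and -0.54 (log2) without passing the test, and the median log2 fold change of the 11 was -0.07. The part of other lymphocytes in the differences of the factors was not tested. Of the 5 regulatory T cell markers tested, which bear on Ikzf2, none passed (1 at an unadjusted p under 0.05). Il2ra and Ctla4 were below the limit on all arrays, Ikzf4 and Tnfrsf4 above it on all, and Gpr83 on 2 arrays of each genotype. The Ahr-ko arrays were above the Ahr-het arrays for 2 of the 5 (Il2ra and Tnfrsf4), against 9.76% of all genes. Foxp3, the main marker of that list, was not among the genes tested. Of the 11 Langerhans cell markers tested 1 rose (Itgax, below the limit on all Ahr-het arrays). The list mean was 7.67 to 7.87 in Ahr-het and 8.13 to 8.42 in Ahr-ko, with a median log2 fold change of 0.11. Cd207 passed the limit on only 1 array of each genotype, but Epcam, H2-Aa, H2-Ab1, H2-Eb1 and Cd68 were above it on all arrays. Of the 12 keratinocyte markers 1 fell (Dsp), and none of the 6 B cell or 6 mast cell markers passed in limma at an adjusted or unadjusted p under 0.05.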

How the data were processed

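RNA of sorted DETC was hybridised to 6 arrays, 3 Ahr-het and 3 Ahr-ko, grouped and numbered as in their labels. The authors deposited log2 values made by RMA, and the submitters' processing notes also name limma 3.38.3. RMA's version and the build behind the probe sets were not stated there. The authors' table of log2 fold changes and p-values of the comparison was used only for gene IDs and gene symbols, which pair probe sets with genes. Of 29129 probe sets 20435 carry a gene ID. The brightest over the 6 arrays stood for each of 86 genes with several, which left 20300 genes, 20199 of them named through the RefSeq table of GRCm38.p6.

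Genotypes were compared in R 4.3.3 with limma 3.58.1 (lmFit, eBayes), with no covariate and Benjamini-Hochberg adjustment, after a check on simulated data. The factors, the gene lists and the tests were chosen with earlier results of these data known. Lists are described by counts and medians beside those of all genes. Named are all factors, Ahr and, of each other list, up to 4 genes past the threshold with the largest change or, where none passed, up to 2 with the highest mean level. For the marker lists the levels or differences of some further genes are given, chosen after their values were seen, as were the further relatives and targets without a call.

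Genotypes share replicate numbers. The deviations from the group means correlated over genes by 0.572, 0.369 and 0.207 for equal numbers 1, 2 and 3, and the numbers were therefore taken to pair the arrays, though the labels do not say what they stand for and unequal numbers 2 and 3 also correlated (0.236 and 0.336). Alternatives were this block, repeated quantile normalization, median centring, a filter on dim genes, all probe sets, the mean of probe sets, a trended robust variance, array weights, a keratinocyte covariate, leaving out both arrays numbered 1 and leaving out each array. Their use on the other lists was added after seeing the data. A few genes past the threshold are left unnamed and are not reported here. All tests and counts include them.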

Additional observations from a re-analysis of the deposited data

How the results depend on the processing

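Over the 16 alternatives Bach2 stayed higher by 0.69 to 0.81 (log2, adjusted p 6.3e-04 to 0.0448) and Ikzf2 by 1.01 to 1.26 (adjusted p 1.83e-04 to 0.0210), both called in each. All probe sets, the mean of probe sets and the filter on dim genes left their log2 fold changes at 0.74 and 1.12, so the 16 are not equally strict checks. With the replicate block, 747 genes were higher and 791 lower in Ahr-ko, against 320 and 318 without it, and the paired fit changed no call among the 9 factors (Bach2 adjusted p = 0.00218, Ikzf2 6.47e-04). Array weights gave 874 higher and 842 lower, the keratinocyte covariate 719 and 1034, and leaving out both arrays numbered 1 gave 552 and 595. Without 1 array in turn 164 to 315 were higher and 178 to 329 lower. The median of the immature minus that of the effector factors was -0.067 with the keratinocyte covariate and -0.053 to 0.155 without 1 array.

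Differences that did not pass the test could change sign. Without 1 array in turn Lef1, whose values were below the background limit and carry no direction, ranged from -0.0080 to 0.14, Foxo1 from -0.16 to 0.64, Id2 from -0.050 to 0.29, Nfil3 from -0.43 to 0.12 and Znrf3 from -0.12 to 0.032. With the keratinocyte covariate Nfil3 was 0.18 and Znrf3 0.015, and without both arrays numbered 1 Znrf3 was 0.028. The cause was not tested. The filter on dim genes left out Lef1, which has no value there.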
